A study of Mus musculus with 8 samples.

Results

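The trophectoderm markers Cdx2, Eomes, Elf5, Tfap2c, Gata3, Hand1, Krt7, Krt8, Krt18 and Krt19 were taken from the count tables by gene symbol, which gave 10 of the 23420 gene rows. RNA-seq was performed on IPO13+/+ and IPO13-/- mouse embryonic stem cells (mESCs), in which Importin-13 (IPO13) carries proteins into and out of the nucleus. Both lines have the strain background 129 x C57BL/6, are labelled as derived from day 5 preimplantation blastocysts, and were grown on gelatin without feeder cells in medium with serum and the cytokine LIF. The 4 groups of 2 libraries each were untreated IPO13+/+ cells (WT-NS), IPO13+/+ cells given 125 µM H2O2 for 1 h with 2 h of recovery in clean medium (WT-ST), untreated IPO13-/- cells (KO-NS) and IPO13-/- cells after the same stress (KO-ST). The sources used here do not say how many clones stand for a genotype or whether the 2 libraries of a group came from separate cultures, so p-values measure the spread between these libraries, which may be technical.

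The trophectoderm is the outer epithelium of the blastocyst and gives rise to the placenta, while mESCs derive from the inner cells. Position and polarity in the embryo are read by the Hippo pathway, which lets TEAD4 with its partner YAP and, beside it, NOTCH signalling switch on Cdx2 and Gata3 in the outer cells. Eomes, Elf5 and Tfap2c then join a network that maintains trophoblast stem cells, Hand1 acts in trophoblast giant cells, and the simple epithelial keratins Krt8, Krt18, Krt7 and Krt19 form the filaments of the layer. Single members also act elsewhere. Tfap2c is a factor of naive pluripotency and germ cells, Eomes of primitive streak and endoderm, and the keratins are shared by most simple epithelia.

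Each library held 60397877 to 73789079 counts on genes, so that 3 counts, taken as the smallest number told from 0, equal 0.0407 to 0.0497 CPM, the counts scaled to the library total. This covers counting error only. Ipo13 itself had 4716 and 4786 counts in WT-NS, 4928 and 4791 in WT-ST, 1965 and 1555 in KO-NS, and 1610 and 1604 in KO-ST. Every IPO13-/- library lay below every IPO13+/+ library, with a log2 fold change of -1.44 ± 0.05 (SE) in untreated cells (edgeR quasi-likelihood test, FDR = 9.5e-19). The counts are per gene and do not show which exons the remaining reads came from. The WT-NS libraries differed from each other more than those of the other groups, with a chi-square per gene of 15 against 2.26 to 6.59.

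In this text CPM are scaled by TMM factors, group values are the mean ± SD of 2 libraries, and a fold change was tested with edgeR's quasi-likelihood test with Benjamini-Hochberg adjustment over the 19424 genes that had a count in any library. A gene passed the test at an FDR below 0.05 and was called when it also changed 2-fold. All 10 members entered the test. The groups serve in several comparisons, WT-NS for instance as the reference of both the untreated knockout and the stressed IPO13+/+ cells, so the comparisons share libraries.

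Loss of IPO13 went with a split among the markers. In untreated cells all 4 keratins were lower in IPO13-/- than in IPO13+/+ mESCs, Krt19 by 2.44-fold, Krt8 by 2.38-fold, Krt7 by 2.12-fold and Krt18 by 1.86-fold. Of the 6 transcription factors, Tfap2c was 1.81-fold and Gata3 1.57-fold higher, and Eomes was 1.33-fold lower. Cdx2, Elf5 and Hand1 did not pass the test and were low in every library. In bulk RNA, fewer cells that express a gene and less RNA per cell cannot be told apart.

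By count, 3 of the 10 members were called in untreated cells (Krt7, Krt8 and Krt19), where 4.71% of all tested genes were called. The count was 4 with limma-voom and also 4 with a stricter filter on low counts. Of the 3, Krt7 alone crossed the 2-fold threshold, with log2 fold changes from -1.23 to -0.91 under 12 alternatives. By the FDR alone, 2 members were higher and 5 lower, against 18.7% and 19.4% of all genes. In stressed cells Krt19 was called, against 4.56% of all genes, and the count of 1 became 3 without WT-ST replicate 2 and 2 without either KO-ST replicate, while 3 members were higher and 5 lower against 19.1% and 17.5%. The median log2 fold change of the 10 members was -0.65 in untreated and -0.70 in stressed cells, beside 0.00 over all genes tested in both.

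**Figure D1:**
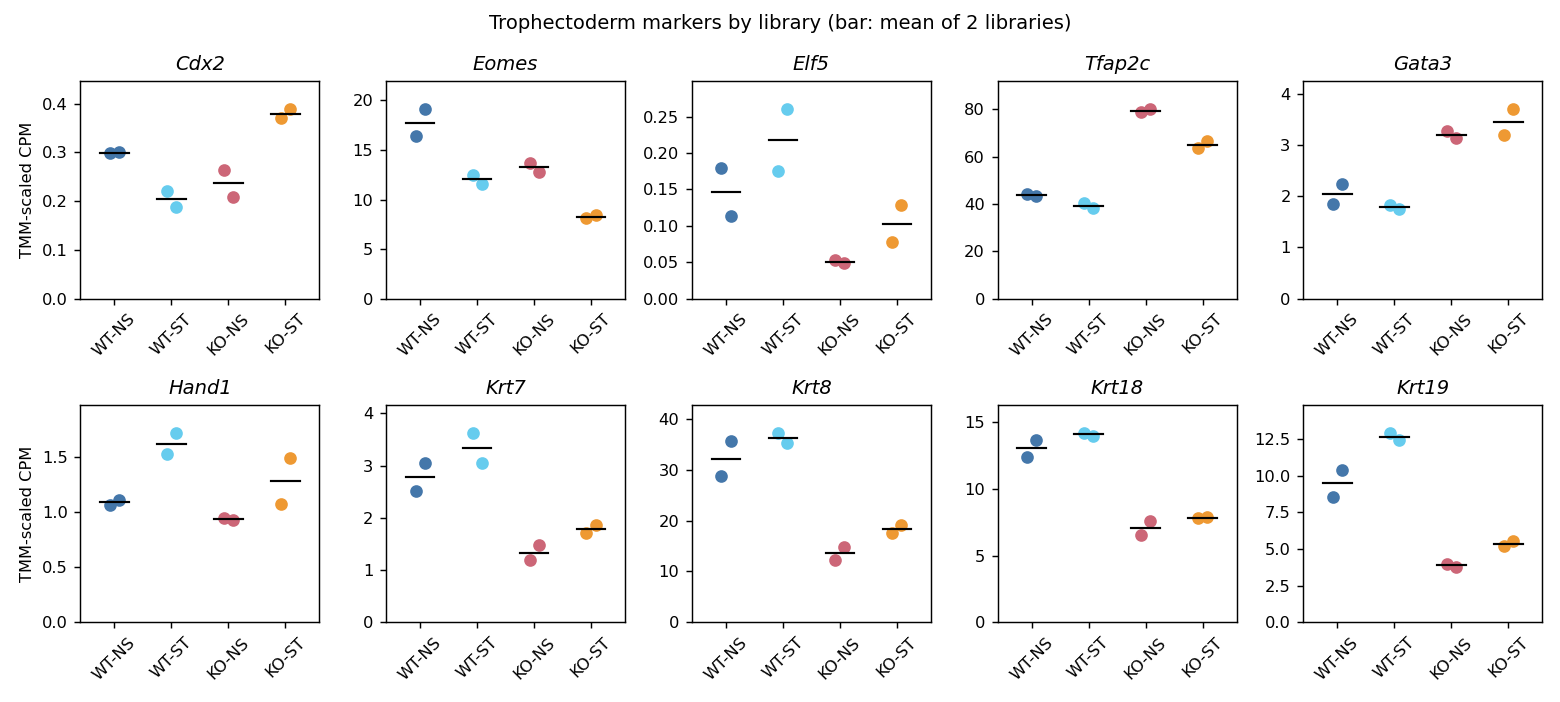
TMM-scaled CPM (linear axes from 0) of each trophectoderm marker in every library, by group, with the mean of 2 libraries as a bar. The keratin points of IPO13-/- cells all lie under those of IPO13+/+ cells, Tfap2c rises from 43.7 to 79.2 CPM in untreated cells, and Cdx2 and Elf5 stay at or below 0.388 CPM.

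The upstream sequences of 3 keratins and of Gata3 are shown because Krt7, Krt8 and Krt18 lie in the keratin cluster on chromosome 15 and fell together, while Gata3 rose. Krt8 and Krt18, which encode partners in the same filament, are 23.7 kb apart, and Krt7 lies 566.4 kb from Krt8. The bases are those before the RefSeq start on GRCm38.p6, read on the gene's strand, without bases that GENCODE M21 places in an untranslated region. Capitals mark matches to GCCNNNGGC, a palindrome bound by AP-2 factors such as the product of Tfap2c, or to the GC box GGGCGG on either strand, in Krt18 a match to the palindrome alone.
Krt7, chr15:101412153-101412401, plus strand: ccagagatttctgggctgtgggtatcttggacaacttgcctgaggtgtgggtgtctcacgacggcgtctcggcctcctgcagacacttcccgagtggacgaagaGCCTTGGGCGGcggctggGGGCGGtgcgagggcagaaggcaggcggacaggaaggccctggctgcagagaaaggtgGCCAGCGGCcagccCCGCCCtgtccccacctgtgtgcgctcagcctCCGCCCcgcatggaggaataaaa
Krt8, chr15:102004483-102004592, minus strand: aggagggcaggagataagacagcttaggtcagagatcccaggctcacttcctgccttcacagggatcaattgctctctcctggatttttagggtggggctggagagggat
Krt18, chr15:102027966-102028179, plus strand: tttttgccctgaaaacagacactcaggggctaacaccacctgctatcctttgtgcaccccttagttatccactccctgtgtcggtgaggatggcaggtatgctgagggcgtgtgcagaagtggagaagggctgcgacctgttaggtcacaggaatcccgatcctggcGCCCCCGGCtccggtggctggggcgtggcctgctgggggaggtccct
Gata3, chr2:9878601-9878850, minus strand: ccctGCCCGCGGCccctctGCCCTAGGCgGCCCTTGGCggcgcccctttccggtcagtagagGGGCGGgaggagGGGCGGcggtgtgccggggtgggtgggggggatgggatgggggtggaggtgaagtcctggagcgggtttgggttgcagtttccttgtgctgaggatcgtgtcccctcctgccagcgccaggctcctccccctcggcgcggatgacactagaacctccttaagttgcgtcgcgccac

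Counted from the start, the palindrome began at -146 and -70 in Krt7, at -83 in Krt18, and at -246, -231 and -221 in Gata3. The GC box began at -141, -128, -56 and -24 in Krt7, where the first overlaps the palindrome, and at -188 and -176 in Gata3. Over the whole window of 250 bases, Krt8 held neither, nor the TEAD site GGAATG. Among 32851 RefSeq windows of this length, 13.7% held the palindrome, 32.7% the GC box and 12.6% the TEAD site on either strand. Of the other members with an entry, also over whole windows, Cdx2 held the palindrome at -16, Elf5 the TEAD site at -173 of 1 of its windows, and Eomes none. The matches in Cdx2 and Elf5 lie in bases that the rule on untranslated regions given above leaves out. Entries matched 7 of the 10 members. A match describes letters and not a bound site.

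Krt8 (chromosome 15, 101996698 to 102004482 on GRCm38, minus strand) and Krt18 (chromosome 15, 102028180 to 102032027, plus strand) encode the type II and type I keratin of the first filaments in the embryo. Krt8 had 1923 and 2494 counts in WT-NS, 2528 and 2434 in WT-ST, 934 and 921 in KO-NS, and 1130 and 1190 in KO-ST. Every IPO13-/- library was below every IPO13+/+ library, and the WT-NS libraries spread widest. In scaled levels this was 32.1 ± 4.91 CPM in WT-NS, 36.2 ± 1.37 in WT-ST, 13.6 ± 1.77 in KO-NS and 18.3 ± 1.26 in KO-ST. The log2 fold change between genotypes was -1.25 ± 0.08 (SE, FDR = 1.6e-12) in untreated and -0.98 ± 0.08 (FDR = 1.1e-10) in stressed cells. A processed copy of Krt8 lies on another chromosome and has no row of its own in the tables, and how the counting treated reads shared with it is not given in the sources used here.

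Krt18 had 834 and 961 counts in WT-NS, 968 and 969 in WT-ST, 496 and 471 in KO-NS, and 505 and 488 in KO-ST. The genotypes did not overlap, and within a genotype stress moved it little. It fell in IPO13-/- cells by 0.89 on the log2 scale (SE 0.07, FDR = 1.8e-10), and in stressed cells by 0.85 (SE 0.07, FDR = 4.2e-10). Per base of exon, Krt8 RNA exceeded its partner in every library. The ratio of the length-scaled levels of Krt8 to Krt18 was 1.69 and 1.9 in WT-NS, 1.92 and 1.84 in WT-ST, 1.38 and 1.44 in KO-NS, and 1.64 and 1.79 in KO-ST. It was lowest in the KO-NS libraries, and the KO-ST libraries overlapped the range of WT-NS.

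Krt19 (chromosome 11, 100140810 to 100148665, minus strand) is a type I keratin of simple epithelia. Its counts were 575 and 729 in WT-NS, 879 and 857 in WT-ST, 303 and 234 in KO-NS, and 338 and 341 in KO-ST, and all IPO13-/- libraries were below all others. The means were 9.49 ± 1.3, 12.7 ± 0.368, 3.89 ± 0.164 and 5.37 ± 0.207 CPM in this order. The log2 fold change between genotypes was -1.29 ± 0.09 (FDR = 5.8e-12) in untreated and -1.24 ± 0.08 (FDR = 2.9e-12) in stressed cells.

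Krt7 (chromosome 15, 101411043 to 101430313, plus strand), a type II keratin that marks trophoblast in later stages, was the least abundant of the keratins. It had 169 and 214 counts in WT-NS, 246 and 211 in WT-ST, 90 and 91 in KO-NS, and 110 and 115 in KO-ST. No IPO13-/- library reached the lowest IPO13+/+ library. It fell by 1.08 on the log2 scale in untreated cells (SE 0.14, FDR = 4.3e-07) and by 0.91 in stressed cells (SE 0.13, FDR = 2.3e-06). It lay close to the 2-fold threshold in both comparisons. The 4 keratins summed to 52.2 to 62.8 CPM in WT-NS, 64.7 to 67.9 in WT-ST, 24.1 to 27.7 in KO-NS and 32.2 to 34.5 in KO-ST.

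**Figure D2:**
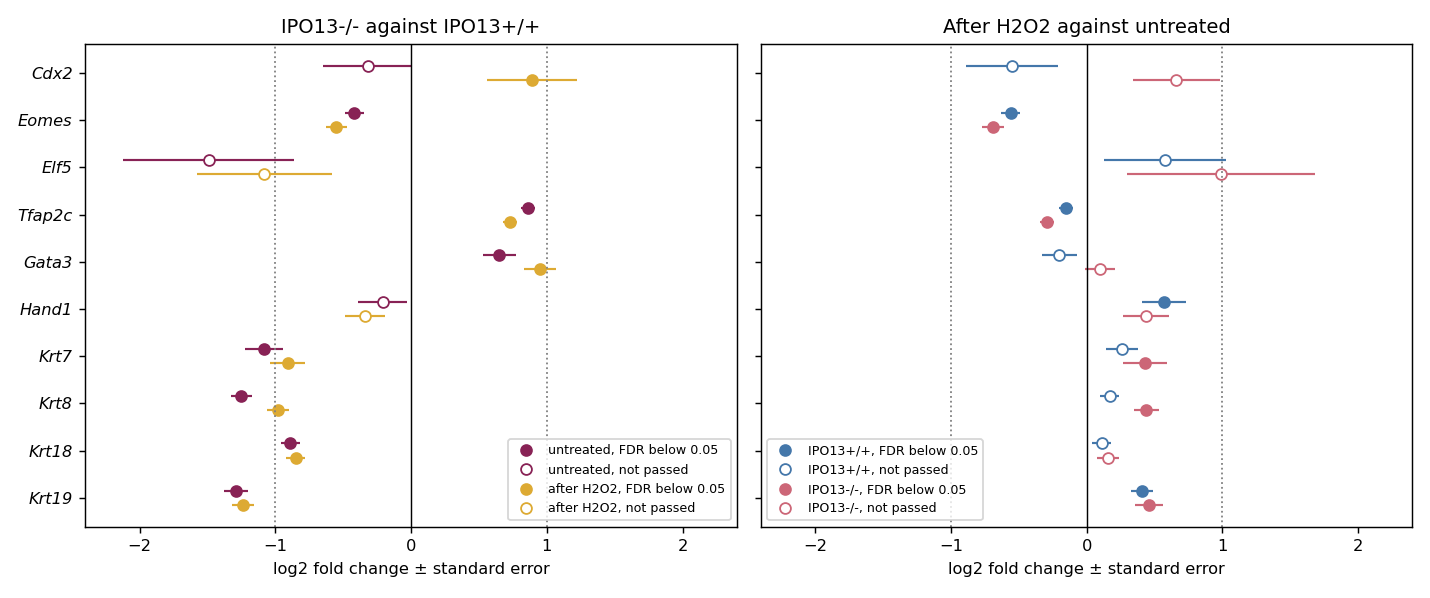
Log2 fold changes ± SE of the 10 markers between genotypes (left) and after H2O2 (right) from the fit of all 8 libraries, with filled points for an FDR below 0.05 and dotted lines at 2-fold. The keratins lie between -1.29 and -0.85 between genotypes, and Eomes and Tfap2c lie below 0 after stress in both genotypes.

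Tfap2c (chromosome 2, 172549593 to 172558622, plus strand) encodes the AP-2 gamma factor. Its counts were 2957 and 3031 in WT-NS, 2745 and 2641 in WT-ST, 5954 and 4958 in KO-NS, and 4118 and 4111 in KO-ST, with every IPO13-/- library above every IPO13+/+ library. This was 43.7 ± 0.57, 39.3 ± 1.51, 79.2 ± 0.878 and 65 ± 2.02 CPM. The log2 fold change between genotypes was 0.86 ± 0.05 (FDR = 2.2e-14) in untreated and 0.73 ± 0.05 (FDR = 1.2e-12) in stressed cells.

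Gata3 (chromosome 2, 9857078 to 9890034, minus strand), a zinc finger factor that acts in parallel to Cdx2 in the trophectoderm, was present at low counts. It had 124 and 156 counts in WT-NS, 124 and 120 in WT-ST, 247 and 195 in KO-NS, and 207 and 228 in KO-ST. The genotypes did not overlap. The log2 fold change was 0.65 ± 0.12 (FDR = 4.7e-05) in untreated and 0.95 ± 0.12 (FDR = 2.9e-07) in stressed cells. Gata3 shares 77 bases of exon with 9230102O04Rik on the same strand, which has its own row, and overlaps antisense genes, and the strand setting of the counting is not given in the sources used here, so that its reads may be split or mixed. Eomes, Krt8 and Krt7 share 118, 101 and 77 bases of exon with genes on the opposite strand that have no row. The unknown strand setting applies to them as well.

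Tfap2c, Gata3 and Elf5 lie on chromosome 2, where most expressed genes were higher in IPO13-/- cells. Over 914 genes of this chromosome with a mean of at least 1 CPM, the median log2 fold change was 0.27 in untreated cells, beside -0.04 on the other chromosomes, and 73.6% of them were higher at an FDR below 0.05, beside 20.9%. In stressed cells the medians were 0.30 and -0.01, and the shares 74.9% and 22.5%. The log2 fold change of Tfap2c exceeded the median of its chromosome by 0.59 in untreated cells, with 39 of the 914 genes above it, and by 0.43 in stressed cells, with 61 above it. That of Gata3 exceeded it by 0.38 (89 genes above) and by 0.65 (23 genes above). The part of the chromosome in these 2 results was not tested. The nearest expressed neighbours of Tfap2c were higher by smaller steps, Cstf1 by 0.32, Aurka by 0.37, Bmp7 by 0.29 and Rae1 by 0.26 on the log2 scale in untreated cells, each at an FDR below 0.05. Those of Gata3 were also higher, each at an FDR below 0.05. Taf3 rose by 0.24 and Atp5c1 by 0.21. On the other side Celf2, 2848.9 kb away, rose by 0.54 and Usp6nl, 3489.0 kb away, by 0.33, beside 0.65 for Gata3.

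**Figure D3:**
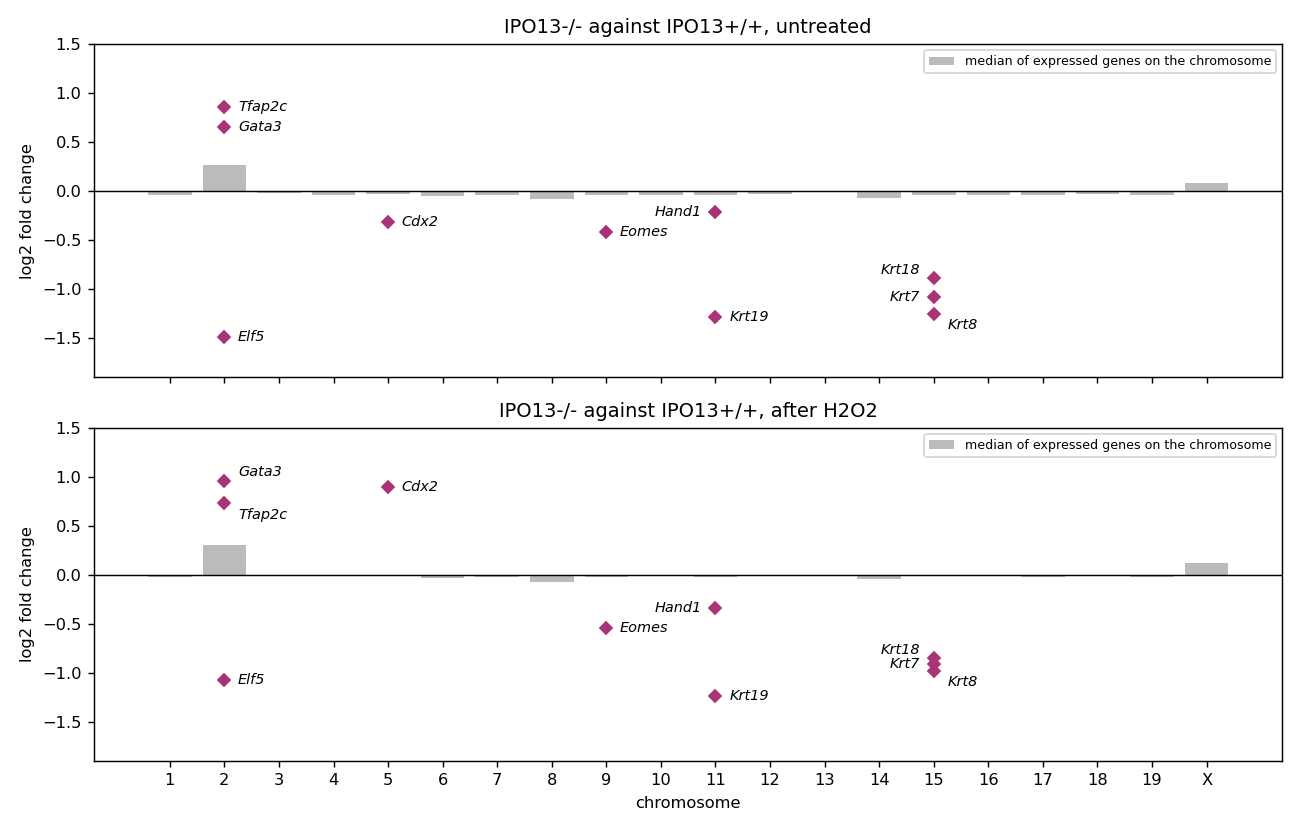
Median log2 fold change of IPO13-/- against IPO13+/+ cells over expressed genes of each chromosome (bars), with the trophectoderm markers at their own log2 fold change (diamonds), untreated above and after H2O2 below. The bar of chromosome 2 stands at 0.27 and 0.30, with Tfap2c and Gata3 above it and Elf5, which did not pass the test, below 0.

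The chromosomes of the keratins, 15 and 11, had medians of -0.04 in untreated cells. Keratins next to Krt19 on chromosome 11 were lower as well. Krt13 fell by 1.82, Krt16 by 1.70 and Krt17 by 1.68 on the log2 scale, while Krt10, 757.4 kb away, had a log2 fold change of -0.04 (FDR = 0.88). Beside Krt18 the gene Eif4b, a translation factor, fell by 0.15 (FDR = 0.0012).

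Eomes (chromosome 9, 118478212 to 118486132, plus strand), a T-box factor of trophoblast and primitive streak, was the member that changed in the same direction in all 4 comparisons and passed each. Its counts were 1102 and 1335 in WT-NS, 849 and 804 in WT-ST, 1041 and 797 in KO-NS, and 525 and 519 in KO-ST. The means were 17.7 ± 1.86, 12.1 ± 0.598, 13.3 ± 0.642 and 8.25 ± 0.199 CPM, highest in WT-NS and lowest in KO-ST. It fell with the loss of IPO13 by 0.42 on the log2 scale (SE 0.07, FDR = 1.7e-05) in untreated and by 0.55 (SE 0.08, FDR = 1.8e-06) in stressed cells. With stress it fell by 0.56 (SE 0.07, FDR = 4.4e-07) in IPO13+/+ and by 0.69 (SE 0.08, FDR = 4.3e-08) in IPO13-/- cells.

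Cdx2 (chromosome 5, 147300805 to 147307270, minus strand), the homeobox factor that defines the trophectoderm, had 20 and 21 counts in WT-NS, 15 and 13 in WT-ST, 20 and 13 in KO-NS, and 24 and 24 in KO-ST. In CPM the KO-ST libraries were the highest, and those of WT-ST and KO-NS overlapped. This gave 0.299 ± 0.00119, 0.204 ± 0.0229, 0.237 ± 0.0387 and 0.379 ± 0.0122 CPM. Between genotypes the log2 fold change was -0.32 ± 0.33 (FDR = 0.51) in untreated and 0.89 ± 0.33 (FDR = 0.036) in stressed cells. The latter did not pass when any 1 of the 4 stressed libraries was left out, nor with DESeq2, with FDRs up to 0.2.

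Elf5 (chromosome 2, 103411688 to 103450989, plus strand), an ETS factor whose promoter is silenced by DNA methylation in mESCs, had 12 and 8 counts in WT-NS, 12 and 18 in WT-ST, 4 and 3 in KO-NS, and 5 and 8 in KO-ST. In CPM the genotypes did not overlap within untreated or within stressed cells. Across these, KO-ST replicate 2, at 0.129 CPM, lay above WT-NS replicate 2, at 0.114. The log2 fold change of -1.49 ± 0.63 in untreated cells did not pass the test (FDR = 0.064), nor did that of -1.08 ± 0.50 in stressed cells (FDR = 0.095). In untreated cells it passed with limma-voom and after a filter on low counts, with FDRs down to 0.037.

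Hand1 (chromosome 11, 57828705 to 57832818, minus strand), a basic helix-loop-helix factor of trophoblast giant cells and heart, had 72 and 78 counts in WT-NS, 104 and 119 in WT-ST, 72 and 58 in KO-NS, and 70 and 92 in KO-ST. In CPM the stressed libraries lay above the untreated ones in both genotypes, and the KO-ST libraries, at 1.08 and 1.49, spread widest. Between genotypes its log2 fold change was -0.21 ± 0.18 (FDR = 0.39) in untreated and -0.34 ± 0.15 (FDR = 0.082) in stressed cells.

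After oxidative stress no member changed 2-fold and passed. Eomes and Tfap2c fell in both genotypes, Krt19 rose in both, Hand1 rose in IPO13+/+ cells, and Krt7 and Krt8 rose in IPO13-/- cells. In IPO13+/+ cells 0 of 10 members were called, against 2.9% of all genes, while by the FDR alone 2 were higher and 2 lower, against 11.5% and 13.8%. In IPO13-/- cells 0 were called, against 2.89% of all genes, while 3 were higher and 2 lower, against 14.9% and 14.4%. The count of members with a 2-fold change was 0 in both genotypes also at an unadjusted p below 0.05, and 0 were called with limma-voom or DESeq2. The median log2 fold change of the members was 0.14 in IPO13+/+ and 0.44 in IPO13-/- cells, beside -0.00 and 0.00 over all genes. The medians include members that did not pass. In IPO13-/- cells these were Elf5 (0.99), Cdx2 (0.66), Hand1 (0.44), Krt18 (0.16) and Gata3 (0.10). No member passed the test of a difference in response between the genotypes, given below.

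Krt19 rose by a log2 fold change of 0.41 ± 0.08 (FDR = 0.00013) in IPO13+/+ cells and 0.46 ± 0.10 (FDR = 0.00069) in IPO13-/- cells. Krt8 rose in IPO13-/- cells by 0.44 ± 0.09 (FDR = 0.00026) and had a log2 fold change of 0.17 ± 0.07 in IPO13+/+ cells (FDR = 0.098), which ranged from 0.02 to 0.34 under 12 alternatives and passed in 3 of them, such as with library totals (FDR = 0.039) and without WT-NS replicate 2 (FDR = 0.00024). The rise of Krt8 in IPO13-/- cells did not pass without KO-NS replicate 1 (FDR = 0.11). Krt7 had values of 0.43 ± 0.16 (FDR = 0.036) in IPO13-/- and 0.26 ± 0.12 (FDR = 0.11) in IPO13+/+ cells, and the first did not pass under 5 of 12 alternatives. Krt18 passed in neither genotype, at 0.11 ± 0.07 (FDR = 0.27) and 0.16 ± 0.08 (FDR = 0.16).

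Tfap2c fell by 0.29 on the log2 scale in IPO13-/- cells (SE 0.05, FDR = 1.6e-05) and by 0.15 in IPO13+/+ cells (SE 0.05, FDR = 0.018), where it did not pass under 5 of 12 alternatives. Hand1 rose by 0.57 ± 0.16 (FDR = 0.0069) in IPO13+/+ cells and did not pass with DESeq2 or without WT-ST replicate 2, with FDRs up to 0.1. Its value in IPO13-/- cells was 0.44 ± 0.17 (FDR = 0.056), with untreated and stressed libraries apart in CPM, and it passed under 3 of 12 alternatives, such as the fit of the libraries compared (FDR = 0.038) and without KO-ST replicate 1 (FDR = 0.012). Gata3 had log2 fold changes of -0.20 ± 0.13 (FDR = 0.31) in IPO13+/+ and 0.10 ± 0.11 (FDR = 0.56) in IPO13-/- cells, and its libraries overlapped in the latter. Cdx2 had -0.55 ± 0.34 (FDR = 0.29) and 0.66 ± 0.32 (FDR = 0.13), and Elf5 0.58 ± 0.45 (FDR = 0.41) and 0.99 ± 0.69 (FDR = 0.33).

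Whether the stress response differed between the genotypes was tested as an interaction. None of the 10 members passed with edgeR at an FDR below 0.05, beside 2.71% of all genes, and limma-voom and DESeq2 also gave 0. At an unadjusted p below 0.05 there were 2, Cdx2 with a log2 difference of 1.21 ± 0.47 (FDR = 0.19) and Krt8 with 0.27 ± 0.11 (FDR = 0.25), against 1 with limma-voom and 0 with DESeq2. A rise of Krt8 or Krt7 that passed in a single genotype is thus not shown to differ between them. The interaction of Krt8 passed under 2 of 15 alternatives, among them the fit without WT-NS replicate 1 (0.42, FDR = 0.0047).

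Levels can be compared between genes per length, as RPKM, the CPM divided by the exon length in kilobases of GENCODE M21. In WT-NS the order was Krt8 at 16.4, Tfap2c at 11.9, Krt18 at 9.1, Krt19 at 5.11 and Eomes at 4.27 RPKM, then Hand1 at 0.547 and Gata3 at 0.512, whose libraries overlapped, Krt7 at 0.395, Cdx2 at 0.132 and Elf5 at 0.0249. All other neighbours in this order were apart in both libraries. In KO-NS Tfap2c came first at 21.5 RPKM, above Krt8 at 6.94 and Krt18 at 4.92, and Eomes at 3.2 stood above Krt19 at 2.09. Gata3 at 0.805 was above Hand1 at 0.472, followed by Krt7 at 0.188, Cdx2 at 0.105 and Elf5 at 0.0086.

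The listed factors of the labelled cell type stood above every marker in each group, except Prdm14. After stress Prdm14 had 7.19 RPKM in WT-ST and 5.94 in KO-ST. This was below Krt8, at 18.5 and 9.37, and Tfap2c, at 10.7 and 17.7. In WT-NS Pou5f1 had 644, Nanog 235 and Sox2 205 RPKM, and the lowest of 16 embryonic stem cell factors, Prdm14, had 16.8, close to Krt8. Cdx2, which defines the trophectoderm, and Elf5, of the trophoblast stem cell network, had the lowest levels of the 10 markers in every group. They had 13 to 24 and 3 to 18 counts per library. Of these 16 factors, 5 were higher and 7 lower in untreated IPO13-/- cells by the FDR alone and 0 changed 2-fold, and Prdm14 fell with stress by 1.22 on the log2 scale in IPO13+/+ and by 1.71 in IPO13-/- cells.

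**Figure D4:**
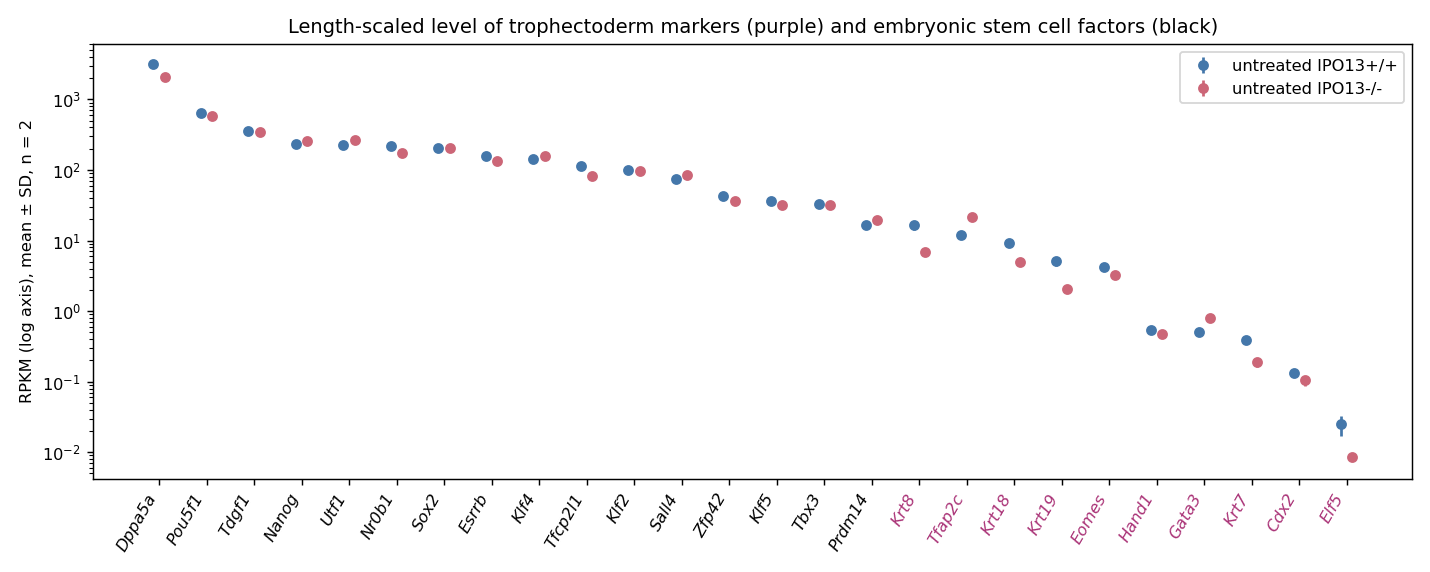
Length-scaled level (RPKM on a log axis, mean ± SD of 2 libraries) of the trophectoderm markers, with purple names, and of 16 embryonic stem cell factors in untreated cells of both genotypes. The markers range from 16.4 RPKM for Krt8 to 0.0249 for Elf5 in IPO13+/+ cells, and in IPO13-/- cells Tfap2c, at 21.5 RPKM, lies above Prdm14, at 19.5.

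Other genes of the same system were read from lists, given here by their counts past an FDR below 0.05 and their median log2 fold change. Over all genes tested, 18.7% were higher and 19.4% lower by the FDR in untreated IPO13-/- cells, with a median of 0.00, and each list is read against these shares. They are not matched for level. Of the 19424 genes tested, 12198 had a mean of at least 1 CPM, beside all 17 upstream genes and 22 of the 24 epithelial genes below. Of the other genes tested, 16 of 19 trophoblast stem cell, 10 of 20 keratin and linker and 10 of 16 primitive endoderm genes reached it. So did 6 of 12 surface ectoderm, 6 of 16 placental and 4 of 16 streak and mesoderm genes. For fibroblast genes it was 3 of 11, and for two-cell-like genes 0 of 9. Of 17 genes upstream of the trophectoderm programme in the Hippo, TEAD and NOTCH pathways, 6 were higher and 7 lower in untreated IPO13-/- cells, 0 changed 2-fold, and the median was -0.05. Of 19 other genes of trophoblast stem cells, 9 were higher and 6 lower, with a median of 0.03. Esx1, a homeobox gene of the placenta, rose by 1.32 ± 0.13 (FDR = 3.6e-09) in untreated cells, from 74 and 99 counts in WT-NS to 232 and 202 in KO-NS. Plac1, a placental surface protein, was lower in stressed IPO13-/- than in stressed IPO13+/+ cells by 1.03 on the log2 scale (FDR = 0.0049). It had 46 and 54 counts in WT-ST and 26 and 19 in KO-ST, and 30 and 62 in WT-NS.

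Of 20 genes of differentiated trophoblast and placenta, 16 had a count, 11 stayed below 10 counts in every library (those without any count included), and 0 were higher and 4 lower in untreated IPO13-/- cells, with a median of -0.41. The median includes the low genes that had a count. The 4 that were lower were Ascl2, Phlda2, Nrk and Igf2, named after their values were seen. Gcm1, which drives the syncytiotrophoblast, rose with stress from 12 and 8 to 47 and 35 counts in IPO13+/+ cells and from 5 and 5 to 18 and 18 in IPO13-/- cells. Its log2 fold changes were 2.02 ± 0.33 (FDR = 3.1e-05) and 1.94 ± 0.47 (FDR = 0.0021), and the second did not pass without KO-NS replicate 1 (FDR = 0.055). Stress also raised Bhlhe40 by 1.43 ± 0.05 (FDR = 6.9e-19) and Gata2, a relative of Gata3 in trophoblast, by 1.01 ± 0.09 (FDR = 5.2e-10) in IPO13-/- cells.

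Genes of the epithelium moved beside the member keratins. Of 24 genes of junctions, polarity and blastocoel transport, 2 were higher and 16 lower in untreated IPO13-/- cells, beside 18.7% and 19.4% of all genes, with a median of -0.52. In stressed cells 5 were higher and 13 lower, beside 19.1% and 17.5% of all genes, with a median of -0.18. The claudins of tight junctions were among those lower. Cldn7 fell from 1466 and 1619 counts in WT-NS to 742 and 591 in KO-NS, by 1.22 on the log2 scale (SE 0.06, FDR = 5e-15). Cldn4 fell by 1.01 (SE 0.04, FDR = 4.3e-17), Cldn6 by 0.96, Cldn3 by 0.81 and E-cadherin (Cdh1) by 0.63, of which Cldn4, Cldn6, Cldn3 and Cdh1 were named after their values were seen. Among the water channels, Aqp3, at 115 CPM in WT-NS and 78.7 in KO-NS, had a log2 fold change of -0.54 ± 0.04 (FDR = 3.9e-11). Aqp8 and Aqp9 went in opposite directions at 6 to 25 counts, Aqp8 by -1.30 ± 0.37 (FDR = 0.0061) and Aqp9 by 1.44 ± 0.39 (FDR = 0.0045). Without KO-NS replicate 1 Aqp8 did not pass (FDR = 0.17), nor did Aqp9 without WT-NS replicate 1 (FDR = 0.056).

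Of 20 other keratins and filament linkers, 3 were higher and 8 lower in untreated IPO13-/- cells, with a median of -0.60. The keratins next to Krt19 had the largest falls. Krt17 went from 4662 and 5178 counts in WT-NS to 1682 and 1397 in KO-NS, Krt13 from 203 and 230 to 70 and 53, and Krt16 from 88 and 107 to 41 and 19. The 3 that rose, named after their values were seen, were Vim, the filament protein of mesenchymal cells, by 1.17, Krt12, with 2 and 3 counts in WT-NS and 9 and 14 in KO-NS, and Krt23, with 0 and 0 counts in WT-NS and 14 and 9 in KO-NS. With stress, Krt5 rose from 9 and 6 to 47 and 40 counts in IPO13+/+ and from 3 and 2 to 25 and 44 in IPO13-/- cells, and Krt15 from 3 and 2 to 24 and 22 and from 2 and 2 to 11 and 12. The linker proteins Evpl, by log2 fold changes of 1.40 ± 0.08 in IPO13+/+ and 1.12 ± 0.10 in IPO13-/- cells, and Ppl, by 1.30 ± 0.07 and 1.30 ± 0.08, rose in both genotypes.

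**Figure D5:**
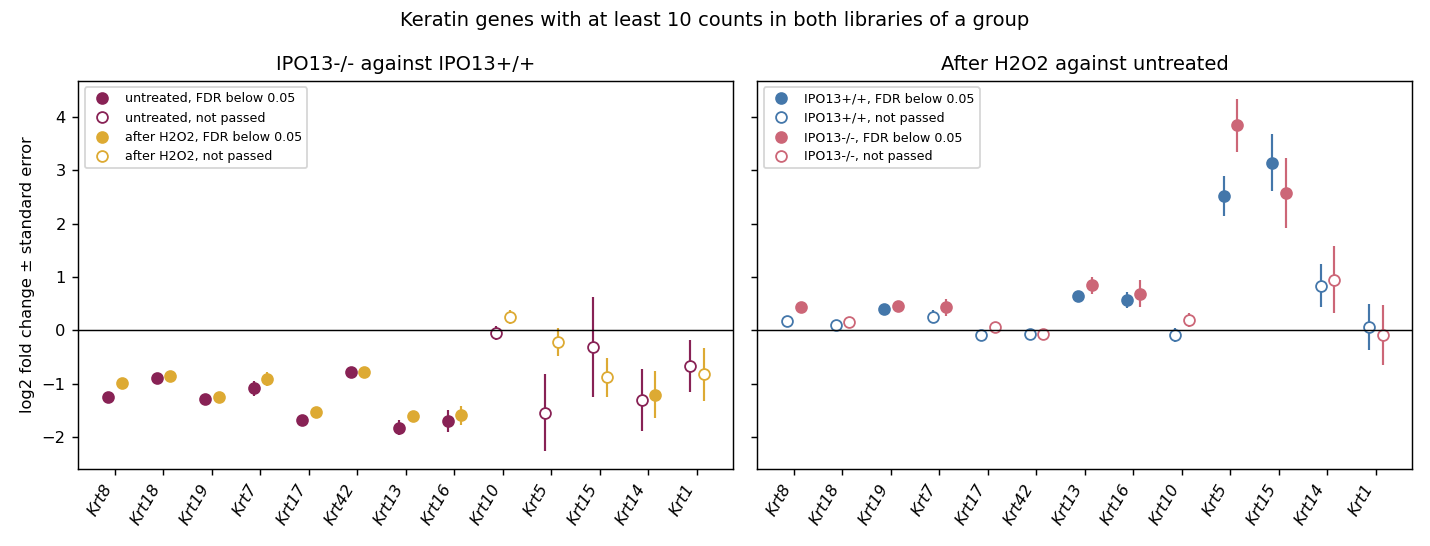
Log2 fold changes ± SE of the 4 member keratins and of the listed keratins that reached 10 counts in both libraries of any group, between genotypes (left) and after H2O2 (right), with filled points for an FDR below 0.05. Krt8, Krt18, Krt19, Krt7, Krt17, Krt42, Krt13 and Krt16 lie below 0 between genotypes, and Krt5 and Krt15 stand highest after stress.

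Markers of other cell types that share members were counted in the same way. Of 16 primitive endoderm genes, 1 was higher and 6 lower in untreated IPO13-/- cells (median -0.32), and their summed level was 600 to 649 CPM in WT-NS and 498 to 499 in KO-NS. Sparc, Lama1 and Lamb1, at 256, 168 and 128 CPM in WT-NS, made up most of this sum and were among those lower. Gata4, Gata6 and Sox17, at 1.92, 1.1 and 0.501 CPM in WT-NS, did not pass. All of these were named after their values were seen. Of 16 genes of the primitive streak and mesoderm, where Eomes also acts, 2 were higher, T and Kdr (named after its values were seen), and 0 lower (median 0.33), beside 18.7% and 19.4% of all genes. The sums of 11.5 to 11.9 CPM in WT-NS and 14 to 14.9 in KO-NS included Kdr, at 4.38 and 6.47 CPM, and their part in the change of Eomes was not tested. T, the mesoderm factor brachyury, had 24 and 10 counts in WT-NS and 51 and 31 in KO-NS (FDR = 0.0025), and did not pass without WT-NS replicate 2 (FDR = 0.089) or without KO-NS replicate 1 (FDR = 0.11). With stress, 2 of these 16 genes were higher and 3 lower in IPO13+/+ cells, beside 11.5% and 13.8% of all genes. In IPO13-/- cells 2 were higher and 4 lower, beside 14.9% and 14.4%. Wnt3, a ligand of the primitive streak, rose with stress from 15 and 20 to 151 and 169 counts in IPO13+/+ and from 17 and 19 to 127 and 166 in IPO13-/- cells. Gsc went the other way, with log2 fold changes of -1.05 in IPO13+/+ and -1.03 in IPO13-/- cells.

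Of 12 genes of surface ectoderm, an epithelium that also holds keratins and whose list shares Krt5, Krt14, Krt15 and Tfap2a with others above, 2 were higher and 6 lower in untreated IPO13-/- cells (median -0.52), with sums of 384 to 394 CPM in WT-NS, 519 to 522 in WT-ST, 243 to 247 in KO-NS and 373 to 383 in KO-ST. Sfn, Grhl2 (named after its values were seen) and Perp made up most of the sum in WT-NS, at 177, 72.8 and 66.7 CPM. The sum moved in the direction of the member keratins, and its part in their change was not tested. Its defining marker Trp63 went the other way, with 3 and 2 counts in WT-NS, 2 and 0 in WT-ST, 23 and 16 in KO-NS, and 24 and 19 in KO-ST. Of 12 fibroblast genes, 11 had a count, 0 were higher and 2 lower (median -0.14), with sums of 9.61 to 13.3 CPM over all libraries. Of 9 genes of two-cell-like cells that matched a row, 6 were higher and 0 lower (median 1.04), with sums of 1.95 to 2.17 CPM in WT-NS and 4.09 to 4.35 in KO-NS. They moved in the direction of Tfap2c and Gata3, and their part in that was not tested. Gm8300 of this list had 18 and 16 counts in WT-NS and 63 and 48 in KO-NS.

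For the members with a mean of at least 1 CPM whose group means spanned at least 1 on the log2 scale, genes of similar pattern, at most 3 for each, were sought among 12198 expressed genes. Likeness is the root mean square difference of the 4 centred group means of log2 CPM. Eomes was closest to Fzd8 (0.015), Dapp1 (0.033) and Egln3 (0.043), and Tfap2c was near St3gal1 (0.022) and Sox12 (0.038). Krt7 was closest to Dhrs3 (0.032), AI661453 (0.043) and Lad1 (0.046), Krt8 to Lad1 (0.055), AU015836 (0.064) and Nrep (0.064), and Krt19 to Aldh3a1 (0.053), Smpdl3b (0.076) and Fndc1 (0.082). Lad1, a protein of epithelial basement membranes, was near both Krt7 and Krt8, with log2 fold changes of -1.17 and -0.84 between genotypes in untreated and stressed cells, beside -1.08 and -0.91 for Krt7 and -1.25 and -0.98 for Krt8. Over 4 group means such likeness is a description of these libraries only.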

How the data were processed

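RNA-seq libraries of 4 groups, 2 each, were used, grouped by their labels. Per the submitters' processing notes, bcl2fastq, STAR 2.3.1, HTSeq, limma and the build mm10 were used, while annotation and strand setting are not given in the sources used here. The authors deposited raw read counts per gene symbol for 23420 rows and the same values as CPM, which matched the counts within 0.0005 and were used for nothing else. The 4 rows with symbols damaged to dates were kept and hold no member.

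The counts were fitted in R 4.3.3 with edgeR 4.0.16 in 1 model of all 8 libraries with 1 coefficient per group, TMM factors and the quasi-likelihood test, over the 19424 genes that had 1 count or more in some library. The FDR follows Benjamini and Hochberg. Calls needed an FDR below 0.05 together with a log2 fold change of 1 or more in size, and for the interaction the FDR alone. Standard errors are the absolute log2 fold change over the square root of F. The depth, of 60397877 to 73789079 counts per library, sets the precision of low genes. Alternatives were factors by relative log expression, plain library totals, limma-voom (limma 3.58.1), DESeq2 1.42.0, filterByExpr (15191 genes), no filter, the replicate block, the libraries compared alone, and each library left out. The latter fits assume that a lone library varies like the other groups.

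Positions and merged exon lengths came from GENCODE M21 (GRCm38) and promoter sequences from RefSeq (GRCm38.p6). The members and gene lists were chosen with earlier results of these data known. Named beside the members were, from each list and comparison, at most the 3 genes with the largest change among those called that reached 10 counts in each library of some group, and the 3 genes most alike to a member in pattern, of which 1 is not reported here. The lists cover upstream pathways, trophoblast stem cells, differentiated trophoblast, epithelial junctions, other keratins, embryonic stem cell factors, primitive endoderm, mesoderm, surface ectoderm, fibroblasts and two-cell-like cells.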

Additional observations from a re-analysis of the deposited data

Results flagged for a closer look

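The stress response differed between genotypes for 20 of 172 listed genes, by the interaction of edgeR's fit at an FDR below 0.05, beside 2.71% of all genes, and for none of the 10 trophectoderm markers. The 17 below are those with the largest differences, at most 3 a list. The count over all genes, 527, ran from 73 to 1291 under the alternatives. A positive value means a response that was higher in IPO13-/- cells. On the log2 scale the differences were 0.77 for Bhlhe40, 0.68 for Gata2 and 0.47 for Bmp4 among trophoblast stem cell genes, 0.35 for Phlda2 of the placenta, and 0.29 for Tead4, 0.27 for Wwtr1 and -0.43 for Cyr61 in the Hippo pathway. Among epithelial genes they were 0.44 for Aqp3, 0.40 for Cldn4 and 0.27 for Atp1b1. Among stem cell factors they were 0.36 for Tbx3, 0.35 for Nr0b1 and -0.49 for Prdm14. They were 0.26 for Perp and 0.25 for Sfn of surface ectoderm, 0.33 for Vim and 0.47 for Thy1. Bhlhe40 rose with stress by 0.66 in IPO13+/+ and 1.43 in IPO13-/- cells, Gata2 by 0.33 and 1.01, and Cldn4 by 0.58 and 0.98, while Bmp4 had -0.61 and -0.14. Under 15 alternatives, 7 of the 17 kept an FDR below 0.05 throughout (Aqp3, Bhlhe40, Bmp4, Cldn4, Cyr61, Nr0b1 and Prdm14) and 10 lost it at least once. Thy1 lost it in 11, Perp and Wwtr1 in 9 each, Sfn in 7 and Tead4 in 6. Gata2 lost it without KO-NS replicate 1 (FDR = 0.14), as did Vim (FDR = 0.087).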

How the results depend on the processing

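Of 627 values of members with an FDR under an alternative, 31 lay on the other side of an FDR of 0.05 from the main fit. With calls that also need a 2-fold change, 227 values with a library left out and 385 under the other alternatives kept direction and side, and 18 did not. In the interaction, where no member passed, the sign turned for Krt18 (-0.03) and Krt19 (-0.02) with library totals, for Krt18 (-0.03) and Krt19 (-0.10) without WT-NS replicate 2, for Krt18 without KO-NS replicate 1 (-0.08), for Elf5 (-0.00) and Krt19 (-0.00) without KO-ST replicate 2, and for Hand1 without KO-ST replicate 1 (0.07). With a library left out, these ranged from -0.08 to 0.14 for Krt18, -0.10 to 0.18 for Krt19, -0.00 to 0.73 for Elf5 and -0.39 to 0.07 for Hand1. Members past the FDR after stress in IPO13+/+ cells numbered 2 with DESeq2 in place of 4, and 2 to 6 with a library left out (2 without WT-ST replicate 2), and in IPO13-/- cells 3 to 6 in place of 5 (3 without KO-NS replicate 1). Members called in stressed cells between genotypes numbered 1 to 3 with a library left out, 3 without WT-ST replicate 2 and 2 without either KO-ST replicate, and in the interaction 0 to 1. Genes called in the interaction, 527 in the main fit, numbered 255 with limma-voom, 294 with DESeq2, 349 with filterByExpr, and 73 to 1157 with a library left out, lowest without KO-NS replicate 1 and highest without WT-NS replicate 1. The causes were not tested. With the replicate block 1291 genes and 1 member, Krt8, passed in the interaction, but same-numbered libraries correlated from -0.085 to 0.61 in their deviations, so the numbers are not shown to pair them. Listed genes lost a call in 71 fits with a library left out and in 28 others. Depth limits Cdx2 and Elf5 at 3 to 24 counts per library.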
